A study of Homo sapiens with 6 samples.

Results

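The glycosyltransferases that build mucin-type O-glycans and the Lewis antigens were compared between MKN28 cells depleted of LTBP1 and their controls. The members were taken by symbol from the deposited table, as the GALNT, FUT, ST3GAL, ST6GAL, ST6GALNAC, B3GNT, B3GALT, B4GALT and GCNT families with C1GALT1. This gave 70 genes of 19960. Of these, 51 had a mean normalized count of at least 10 over all 6 libraries and were tested, 19 were below that level, and 7 of the 19 were listed at 0 in every library. MKN28 is an established human gastric adenocarcinoma line. The shSCR group (3 libraries) consists of stable cells that express a scrambled short hairpin RNA from a plasmid. The shLTBP1 group (3 libraries) consists of stable cells that express a hairpin against LTBP1, which encodes a latent TGF-beta binding protein of the extracellular matrix. Both groups were grown in the same RPMI medium with serum, with no other treatment named. The labels do not say whether a stable line was a pool or 1 clone, or whether libraries of 1 group were cultured separately. The p-values therefore describe library-to-library spread, part of which may be technical. The groups are different stable cells, so an effect of the hairpin cannot be told apart from another difference between them. Below, "after depletion" means in the shLTBP1 libraries.

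Mucin-type O-glycosylation takes place in the Golgi. A GALNT enzyme places N-acetylgalactosamine (GalNAc) on serine or threonine, giving the Tn antigen, and C1GALT1 adds galactose to give core 1, the T antigen. The chain is then branched by GCNT enzymes, lengthened with N-acetylglucosamine and galactose by B3GNT, B4GALT and B3GALT enzymes, and capped with fucose (FUT) or sialic acid (ST3GAL, ST6GAL, ST6GALNAC). Lewis antigens are fucosylated chain ends, and in gastric epithelium they are carried by mucins and serve as attachment sites for bacteria, while sialyl Lewis antigens and truncated sialylated O-glycans are used as markers of gastrointestinal cancers. Several enzymes named here also act on N-glycans, glycolipids or proteoglycans, and RNA levels do not give enzyme activity or glycan amounts.

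The deposited values are normalized read counts, which sum to between 30479879 and 30941103 per library. LTBP1 was at 977, 964 and 1011 in shSCR against 59.0, 66.7 and 49.0 in shLTBP1, so that 5.92% of the control mean remained (log2 fold change -4.07, limma adjusted p = 1.18e-08; exact two-sided permutation p = 0.1, the smallest that 3 against 3 allow). All 6 epithelial genes examined (EPCAM, CDH1, KRT8, KRT18, KRT19 and CLDN4) were expressed, with a summed level of 324236 to 344681 in shSCR and 287672 to 311549 in shLTBP1. EPCAM itself fell by 1.12 on the log2 scale. Of 7 fibroblast markers, COL1A1 and LUM reached a mean of 10. LUM was at 0 in all 3 shSCR libraries and at 41.5, 52.0 and 36.6 in shLTBP1, while DCN, COL1A2, COL3A1, PDGFRB and THY1 (0 in every library) did not exceed 4.53. The summed fibroblast list ranged from 1095 to 1337 in shSCR and from 706 to 929.9 in shLTBP1. The 6 blood cell markers summed to 343 to 392 and 623 to 728, nearly all of it CD68, with PTPRC and CD3E at no more than 0.74 and 2.07. The 4 endothelial markers summed to 35.6 to 51.2 and 23.9 to 30.5. The part of these genes in the results was not tested.

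The members moved in both directions, and about as often as other genes. Of the 51 tested, 14 were higher and 15 lower in shLTBP1 at a limma adjusted p under 0.05, and 22 did not pass. Across all 12789 tested genes 53.1% passed (26.3% of all tested genes as higher and 26.8% as lower), so that the members' 56.9% lies close to the background. The groups' values did not overlap for 29 of the 51, against 60.8% of all tested genes. All fold changes were taken from log2(value + 1). A change of 2-fold or more passed the test for 3 higher and 4 lower members. These 7 are 13.7% of the members, where 8.92% of all tested genes changed that far, 4.54% upward and 4.39% downward. The median log2 fold change was 0.00 both for the members and for all tested genes, and the median size without sign was 0.30 for the members and 0.26 for all tested genes. Of the 29 members that passed, 21 kept their direction and their call under every alternative in which they were tested, among them the 7 with at least a 2-fold change. This was 15 of the 16 alternatives for ST6GALNAC2, which is below the minimum mean of 50 used in the other, and all 16 for the rest of the 21. The values by library and the fold changes by step show where the changes lie.

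**Figure D1:**
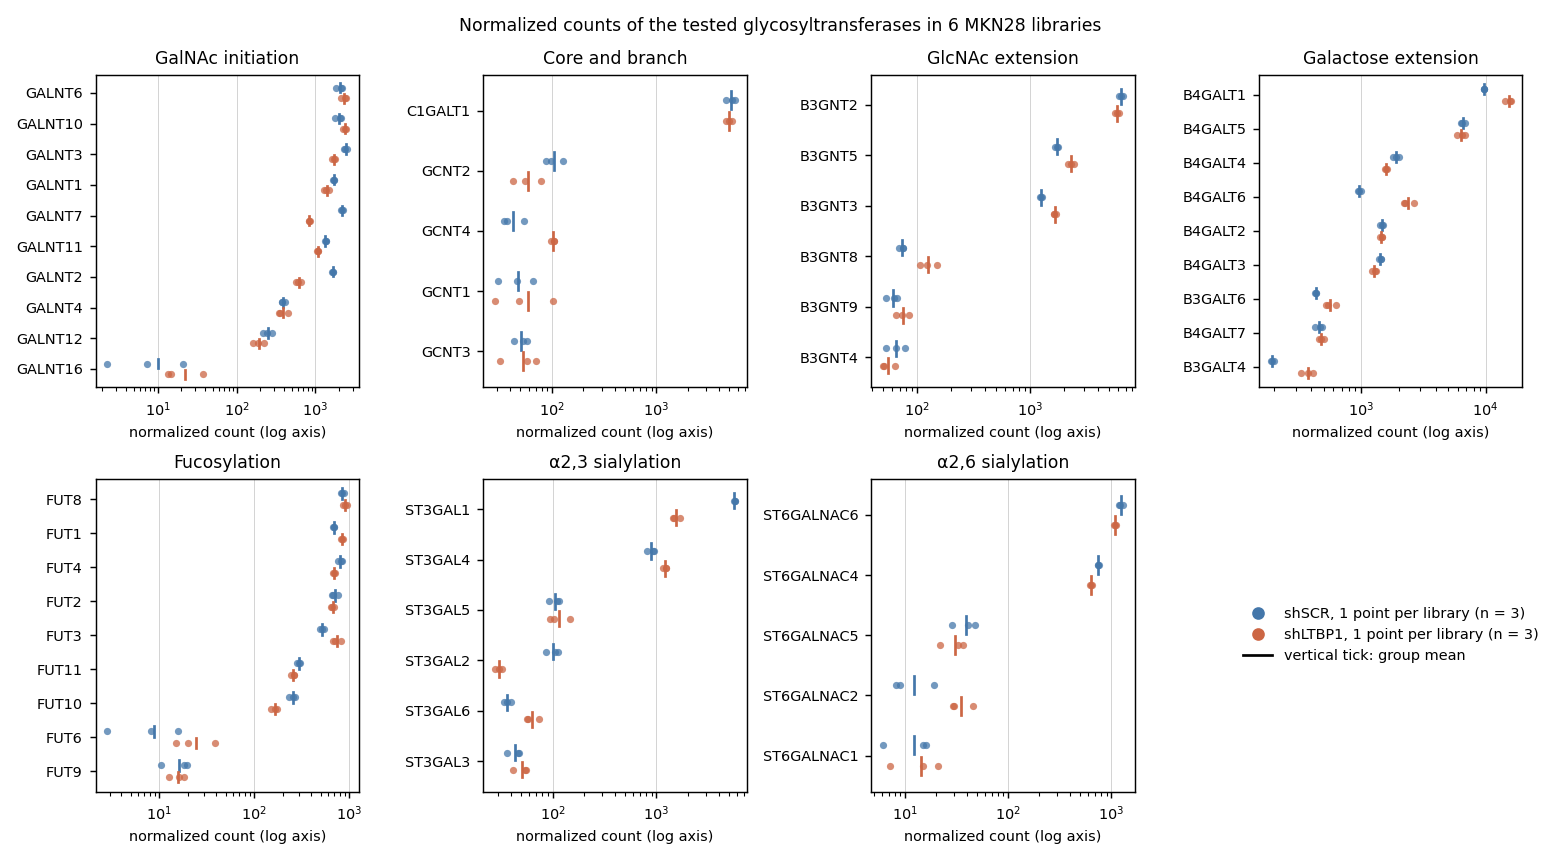
Normalized count (log axis) of the 50 tested members with an assigned step in each of 6 libraries, 1 point per library and a tick at the group mean (n = 3). ST3GAL1, GALNT2 and GALNT7 sit well to the left in shLTBP1, and B4GALT6, B4GALT1 and GCNT4 to the right, with no overlap between groups.

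**Figure D2:**
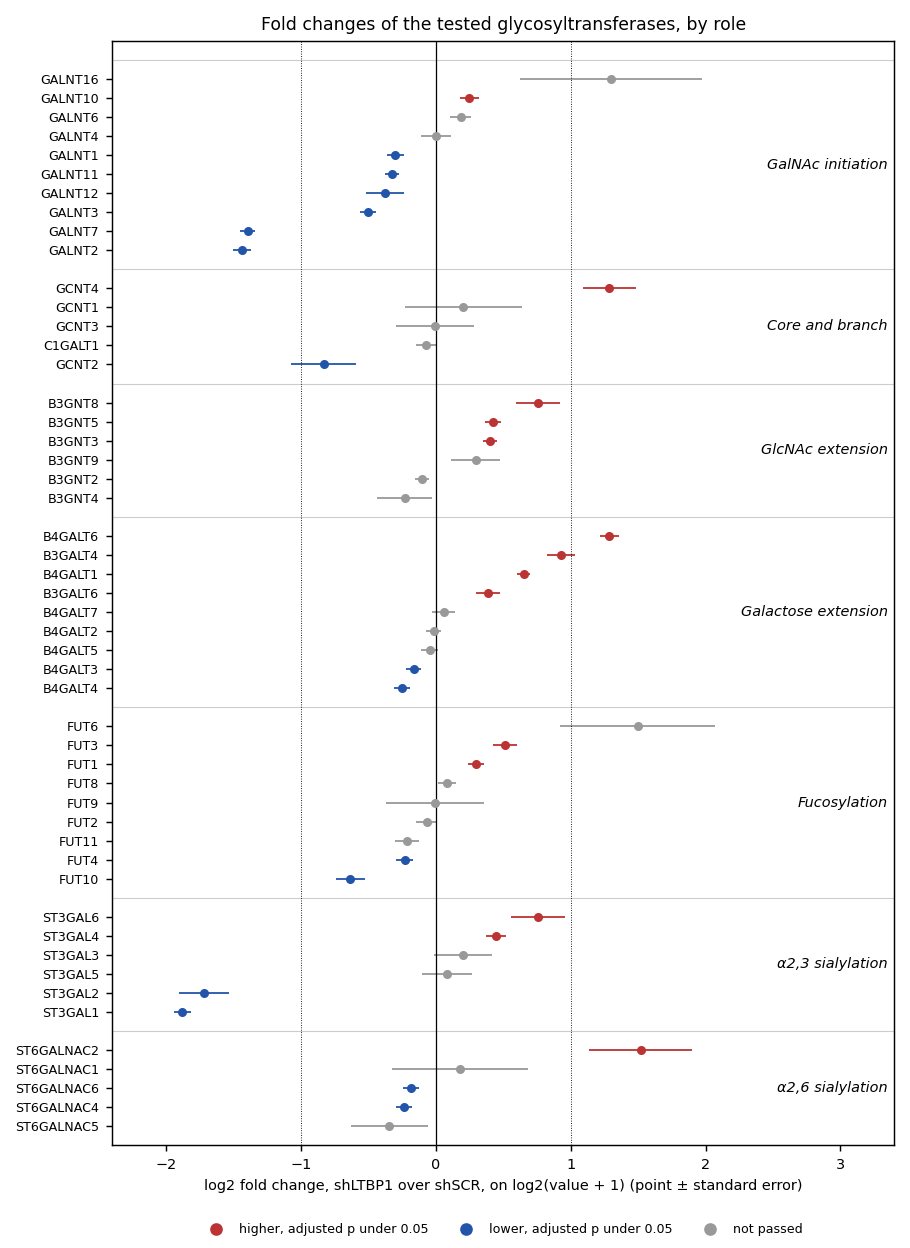
Log2 fold change (shLTBP1 over shSCR) with its standard error for the same members, ordered by step; colour marks the limma call and the dotted lines a 2-fold change. In GalNAc initiation 6 of 10 members were lower, and in GlcNAc extension 3 of 6 were higher and none lower. Over all tested genes 26.8% were lower and 26.3% higher.

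Among the enzymes that start O-glycans, 6 of 10 tested were lower in shLTBP1, 1 was higher and 3 did not pass (median log2 fold change -0.31). Across all tested genes 26.8% were lower and 26.3% higher, and whether 6 of 10 differs from that share was not tested. The same shares stand beside the counts of the other steps, which were not tested against them either. The deepest falls were in GALNT2, a widely expressed initiating enzyme, and GALNT7, which prefers peptides that already carry GalNAc. GALNT2 (ENSG00000143641, chromosome 1, bases 230057990 to 230282124, plus strand in hg38) was at 1626, 1656 and 1682 with the scrambled hairpin and 608, 658 and 568 with the LTBP1 hairpin. The groups are far apart: it fell from 1655 ± 28.1 to 611 ± 44.8 (SD, n = 3 each), which leaves 37.0% of the control (log2 fold change -1.44, standard error 0.07, adjusted p = 2.04e-07). GALNT7 (ENSG00000109586, chromosome 4, bases 173168753 to 173323967, plus strand) was at 2244, 2114 and 2159 in control libraries and 818, 842 and 818 after depletion. It fell from 2172 ± 66.1 to 826 ± 13.8, or to 38.0% of the control (log2 fold change -1.39, standard error 0.05, adjusted p = 5.51e-08). Neither gene lies among neighbours that moved with it: the 25 tested genes on each side had a median of -0.02 around GALNT2 and of 0.02 around GALNT7. In bulk RNA, fewer cells that express a gene and less of its RNA per cell cannot be told apart.

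The other initiating enzymes changed less. GALNT1, another broadly active enzyme, fell from 1706 ± 27.1 to 1388 ± 105 (log2 fold change -0.30), and GALNT11, known to act on Notch1, from 1336 ± 9.99 to 1067 ± 11.5 (-0.32). Both pairs of groups were separate. GALNT3, which glycosylates FGF23, fell from 2408 ± 90.5 to 1700.2 ± 77.9 (log2 fold change -0.50, standard error 0.06, adjusted p = 5.02e-05), and it lies on chromosome 2, whose 852 tested genes had a median of -0.56. GALNT12, an enzyme of the colon epithelium, was at 245, 280.4 and 217 in shSCR against 164, 221 and 188 in shLTBP1. These values overlap, its adjusted p of 0.0463 was close to the threshold, and it lost the call without any 1 of shSCR replicates 1 and 2 and shLTBP1 replicates 1 and 3 (adjusted p 0.0928 to 0.163). GALNT10, a relative of GALNT7, was the member that rose, from 1974 ± 169.8 to 2339.7 ± 103 (0.25). GALNT6, known to act on fibronectin, had the highest count of the step over all libraries, with 2122, 1823 and 2166 with the scrambled hairpin and 2449, 2373 and 2117 with the LTBP1 hairpin. These values overlap and it did not pass (adjusted p = 0.0758; it passed without shLTBP1 replicate 3, at 0.0307, and under upper quartile and quantile scaling). GALNT4 was at 385 ± 19.8 and 388 ± 58.4, and 93.6% of the 50-base windows of its coding sequence also occur in the readthrough gene POC1B-GALNT4, so the split of reads between them is uncertain. GALNT16 was low and variable, at 7.41, 2.32 and 20.8 in control libraries and 37.8, 13.6 and 15 after depletion, and did not pass (adjusted p = 0.133, and 0.0277 without shSCR replicate 3, with log2 fold changes of 1.3 and 1.98). The remaining 8 were below the mean of 10: GALNT5, GALNT9, GALNT13, GALNT14 and GALNT15 did not exceed 9.51 in any library, and GALNT8, GALNT17 and GALNT18 were listed at 0.

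Levels of different genes can be compared only per length. The length used was that of all exons of a gene joined over its annotated transcripts, not that of the transcript expressed here. Normalized count per kilobase of exon placed GALNT3 first in both groups (514 and 363). In shSCR it was followed by GALNT1 (333), GALNT7 (316) and GALNT6 (277), and in shLTBP1 by GALNT6 (315), GALNT1 (271) and GALNT10 (223). The summed per-kilobase level of the GALNT family was 2157 ± 23.3 in shSCR and 1635 ± 20 in shLTBP1 (SD, n = 3 each), a ratio of 0.758. GALNT3, the largest term, lies on chromosome 2, whose tested genes had a median log2 fold change of -0.56. The sum was taken without correction for such shifts of neighbouring genes. Within that sum, GALNT7 made up 15%, 14.4% and 14.6% in shSCR against 7.32%, 7.57% and 7.18% in shLTBP1. GALNT2 went from 9.91% ± 0.232 to 4.83% ± 0.408 of the sum, while GALNT6 went from 12.8% ± 1.07 to 19.3% ± 1.65 and GALNT10 from 8.71% ± 0.666 to 13.6% ± 0.470. The shares of GALNT7 and GALNT2 were thus lower, and those of GALNT6 and GALNT10 higher, in all 3 shLTBP1 libraries than in any shSCR library. A share also rises when the sum falls, as it did here. GALNT6's own values overlapped between the groups and did not pass (limma adjusted p = 0.0758). The shares themselves were not tested.

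**Figure D3:**
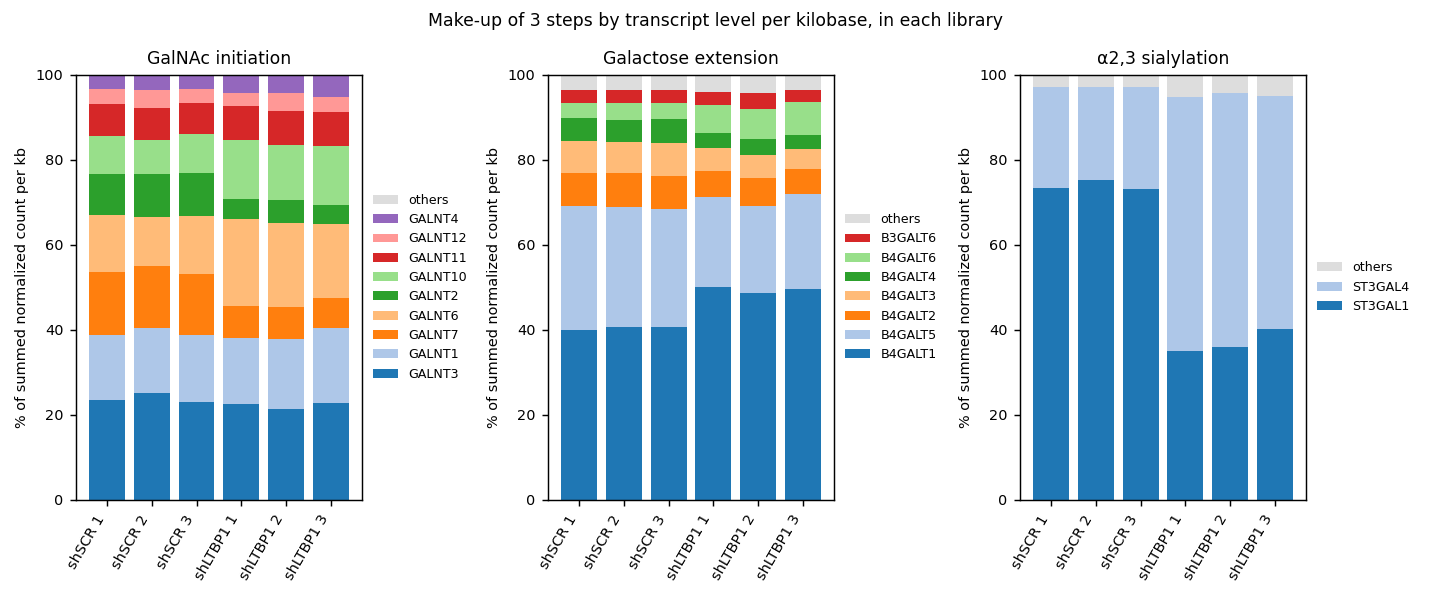
Share of each enzyme in the summed normalized count per kilobase of its step (stacked bars, percent), 1 bar per library, for GalNAc initiation, galactose extension and α2,3 sialylation; enzymes under 3% in both groups are pooled as others. The bars within a group look alike, and ST3GAL1 takes 73.1% to 75.3% of its step in shSCR and 34.9% to 40.1% in shLTBP1.

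The promoters of GALNT2, GALNT7 and GCNT4, a branching enzyme described below, are shown because these members changed by at least 2-fold, in opposite directions. They are the 250 bases before the transcript start as RefSeq gives it, from GRCh38.p14, read 5′ to 3′ on the gene's strand. Capitals mark matches, on either strand, to any of 5 motifs: the GC box GGGCGG, the SMAD box CAGAC, the GC-rich SMAD element GGCGCC, the AP-1 site TGANTCA and the TATA box TATAAA. The window of GALNT2 is chr1:230066988-230067237 (plus strand), that of GALNT7 chr4:173168561-173168810 (plus strand), and that of GCNT4 chr5:75052559-75052808 (minus strand). The RefSeq start of GALNT2 lies inside the gene as GENCODE bounds it, that of GALNT7 lies close after its GENCODE start, and that of GCNT4 lies upstream of the whole gene as GENCODE bounds it. The 3 windows are therefore not the starts that GENCODE gives for the genes counted here.
GALNT2: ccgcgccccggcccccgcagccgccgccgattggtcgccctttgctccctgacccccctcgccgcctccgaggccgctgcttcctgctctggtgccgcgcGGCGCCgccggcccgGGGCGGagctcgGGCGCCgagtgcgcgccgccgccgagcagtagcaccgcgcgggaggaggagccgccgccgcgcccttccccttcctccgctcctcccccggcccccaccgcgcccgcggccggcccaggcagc
GALNT7: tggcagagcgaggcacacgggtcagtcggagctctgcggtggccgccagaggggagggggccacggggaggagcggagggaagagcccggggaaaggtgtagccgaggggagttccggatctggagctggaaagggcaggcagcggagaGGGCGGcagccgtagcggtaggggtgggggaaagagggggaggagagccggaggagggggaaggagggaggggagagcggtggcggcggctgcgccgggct
GCNT4: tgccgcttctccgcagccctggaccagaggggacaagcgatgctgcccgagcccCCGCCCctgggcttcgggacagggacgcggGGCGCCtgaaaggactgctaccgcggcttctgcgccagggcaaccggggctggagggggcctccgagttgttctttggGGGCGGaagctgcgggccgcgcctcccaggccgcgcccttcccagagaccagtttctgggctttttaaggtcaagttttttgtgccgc
All 3 windows are rich in G and C (82.8% in GALNT2, 72.4% in GALNT7 and 68.4% in GCNT4, where the median of all 35116 RefSeq windows of this length is 58.0%). The GC box is found 1 time in GALNT2, 1 time in GALNT7 and 2 times in GCNT4, and in 42.6% of all windows. GGCGCC is found 2 times in GALNT2, 1 time in GCNT4 and not in GALNT7, and in 16.4% of all windows. The SMAD box, the AP-1 site and the TATA box have no match in the 3 windows, and 38.0%, 6.57% and 10.7% of all windows hold them. A match is only a description of these letters. A promoter entry was matched for 51 of the 70 members, and ST3GAL1, ST3GAL2, B4GALT6 and ST6GALNAC2, the other members with at least a 2-fold change, were not among them.

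C1GALT1, the enzyme that makes core 1, was the most abundant member of its step and did not pass. It was at 5622, 5339 and 4631 in shSCR against 4962, 4619.5 and 5233 in shLTBP1, and these values overlap (log2 fold change -0.07, adjusted p = 0.455). Its chaperone C1GALT1C1, which is not a member, rose from 520.2 ± 22.5 to 632 ± 14.2 (log2 fold change 0.28, adjusted p = 0.00766). The share of C1GALT1 in the per-kilobase level of the core and branching enzymes went from 95.4% ± 0.268 to 94.1% ± 1.02.

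Of the branching enzymes, 1 rose and 1 fell, at low levels. GCNT4, one of the core 2 branching enzymes, was at 37.5, 54.0 and 35.1 with the scrambled hairpin and 104, 97.9 and 105 with the LTBP1 hairpin. Every shLTBP1 value lies above every shSCR value (from 42.2 ± 10.3 to 103 ± 4.12, log2 fold change 1.29, standard error 0.20, adjusted p = 4.29e-04). GCNT2, which makes the branched I antigen from linear chains, was at 128, 86.8 and 97.5 in control libraries and 42.7, 55.7 and 79.2 after depletion and fell (log2 fold change -0.83, standard error 0.24, adjusted p = 0.0165). It lost the call without shSCR replicate 1 or without shLTBP1 replicate 1 (log2 fold changes -0.67 and -0.62, adjusted p 0.0674 and 0.0558). GCNT1 and GCNT3, the other core 2 enzymes, ranged from 28.7 to 102 and from 31.8 to 70.5 over the 6 libraries and did not pass (adjusted p = 0.715 and 0.995). B3GNT6, which makes core 3, and GCNT7 were at no more than 1.3 in any library.

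The enzymes that add N-acetylglucosamine to growing chains were higher or did not pass: of 6 tested, 3 rose and none fell (median log2 fold change 0.35). Across all tested genes 26.3% were higher and 26.8% lower, and whether 3 of 6 differs from that share was not tested. The 2 with negative fold changes, B3GNT2 and B3GNT4, had unadjusted p-values of 0.0710 and 0.288 in limma, so the count of falls is also 0 without adjustment. B3GNT3, which extends core 1, rose from 1248 ± 14.3 to 1651 ± 51.8 (log2 fold change 0.40, adjusted p = 1.51e-04). B3GNT8, an enzyme of polylactosamine chains, was at 74.8, 74.9 and 69.2 in shSCR against 149, 105 and 123 in shLTBP1 and rose (log2 fold change 0.76, standard error 0.16, adjusted p = 0.00315). Neither gene's groups overlap. B3GNT5, which starts the lacto- and neolacto-series glycolipids, rose from 1719 ± 53.5 to 2308 ± 153 (log2 fold change 0.42), in a part of chromosome 3 where the neighbouring genes had a median of 0.57. With the median of the 25 tested genes on each side subtracted, B3GNT5 was at -0.15 and no longer passed (limma adjusted p = 0.0554). B3GNT3 and B3GNT8 kept their calls after this subtraction, at 0.24 and 0.67. B3GNT2, the main polylactosamine enzyme, was the most abundant of the step, with 6322, 6607 and 6078 with the scrambled hairpin and 5926, 5656 and 6136 with the LTBP1 hairpin. Its values overlap between groups and it did not pass (log2 fold change -0.10, adjusted p = 0.115). After the same subtraction B3GNT2, on chromosome 2, was at 0.50 and passed (limma adjusted p = 1.06e-05). B3GNT4 and B3GNT9 stayed between 50.1 and 85.3 and did not pass, and B3GNT7, an enzyme of keratan sulfate, was below the mean of 10 at 6.28 to 8.11. B3GNT10, which was given no step, was at 139 ± 6.27 and 149 ± 26.2 (adjusted p = 0.657).

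Among the galactosyltransferases 4 of 9 tested rose, 2 fell and 3 did not pass (median log2 fold change 0.06). B4GALT1, the main enzyme that completes N-acetyllactosamine chains, had the highest count of all members, with 9722, 9735 and 9672 in control libraries and 15687, 14281 and 15850.2 after depletion. It rose from 9709.6 ± 33.2 to 15273 ± 863, a ratio of 1.57 (log2 fold change 0.65, standard error 0.05, adjusted p = 2.98e-06). B4GALT6, a lactosylceramide synthase (ENSG00000118276, chromosome 18, bases 31622247 to 31685836, minus strand in hg38), was at 959.6, 996 and 952 in shSCR against 2254, 2225 and 2644 in shLTBP1. It rose from 969 ± 23.7 to 2374 ± 234, a ratio of 2.45 (log2 fold change 1.29, standard error 0.07, adjusted p = 5.94e-07), while the genes around it had a median of -0.15. B4GALT5, the other lactosylceramide synthase, was more abundant and overlapped between groups, at 6582 ± 274 and 6388 ± 517 (adjusted p = 0.565). The 2 synthases thus differed in their call, but the difference between them was not tested.

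B3GALT4, which makes the ganglioside GM1, was at 189, 192 and 201 with the scrambled hairpin and 408, 377 and 332 with the LTBP1 hairpin. Its groups are separate by a wide margin (log2 fold change 0.93, standard error 0.10, adjusted p = 4.73e-05). B3GALT6, an enzyme of the proteoglycan linker region, rose from 432 ± 6.32 to 568 ± 57.7 (log2 fold change 0.39), whereas B4GALT7, which acts one step earlier in the same linker, was at 461 ± 32.2 and 479 ± 21.7 and did not pass. B4GALT4, which acts on sulfated chains, fell from 1896 ± 102 to 1592 ± 34.7 (-0.25). B4GALT3 fell from 1428 ± 35.5 to 1276 ± 49.6 (-0.16, adjusted p = 0.0349), and it lost the call under 7 of 16 alternatives (adjusted p 0.0283 to 0.107 over all 16), among them without any 1 of the 3 shSCR libraries or without shLTBP1 replicate 3. B4GALT2 did not pass (1468 ± 40.0 and 1451 ± 29.3). B3GALT5, which makes the type 1 chain on which Lewis a and Lewis b are built, was at 1.62, 3.19 and 2.83 in control libraries and 1.09, 0.571 and 0 after depletion and was below the mean of 10, as were B3GALT1, listed at 0, and B3GALT2, with 1 value above 0.

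Per kilobase, the galactosyltransferases summed to 4909 ± 64.2 in shSCR and 6309 ± 274 in shLTBP1 (SD, n = 3 each). B4GALT1 took 39.8%, 40.6% and 40.6% in shSCR against 49.9%, 48.6% and 49.6% in shLTBP1. B4GALT6 went from 3.72% ± 0.108 to 7.09% ± 0.515 of the sum and B4GALT5 from 28.4% ± 0.804 to 21.4% ± 0.850. In each of these shares, all 3 shLTBP1 libraries lie on the same side of all 3 shSCR libraries. The share of B4GALT5 fell while the sum rose. Its own values overlapped between the groups and did not pass (limma adjusted p = 0.565). The shares were not tested.

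Among the fucosyltransferases, 2 of 9 tested rose, 2 fell and 5 did not pass, with no call of 2-fold size. FUT3, the Lewis enzyme, which makes Lewis a, Lewis b and sialyl Lewis a, was at 488, 544 and 512 in shSCR against 709, 684 and 822 in shLTBP1. It rose from 515 ± 27.6 to 738 ± 73.9, a ratio of 1.43 (log2 fold change 0.52, standard error 0.09, adjusted p = 7.94e-04). FUT1, which makes the H antigen that precedes Lewis y, rose from 689 ± 9.86 to 848 ± 22.4 (log2 fold change 0.30, adjusted p = 0.00256). FUT2, the secretor enzyme, which makes the H antigen that precedes Lewis b, was at 771, 678 and 664 with the scrambled hairpin and 667, 699.6 and 647 with the LTBP1 hairpin. Its groups overlap (log2 fold change -0.07, adjusted p = 0.497).

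Both fucosyltransferases that fell, FUT4 and FUT10, are among the other members. FUT4, which makes Lewis x, fell from 812 ± 37.9 to 691 ± 11.7 (log2 fold change -0.23, adjusted p = 0.0143, and 0.0639 without shSCR replicate 1). FUT9, another Lewis x enzyme, was at 10.5 to 19.8 and did not pass. FUT6, which makes sialyl Lewis x, was at 15.7, 2.86 and 8.20 in control libraries and 38.3, 14.9 and 20.2 after depletion. The groups overlap slightly and the adjusted p was 0.0502, with a log2 fold change of 1.5. It passed under 6 of 15 alternatives, among them without shSCR replicate 1 (1.99, adjusted p = 0.0181) or shLTBP1 replicate 2 (1.78, adjusted p = 0.0455). FUT7, the sialyl Lewis x enzyme of leukocytes, did not exceed 2.02. FUT8, which adds the core fucose of N-glycans, had the highest count of the step, with 842, 819.8 and 889 in shSCR against 898, 856 and 949.7 in shLTBP1, and did not pass. FUT10 fell from 256 ± 18.7 to 165 ± 11.7 (log2 fold change -0.63, standard error 0.11, adjusted p = 9.18e-04), and FUT11 was at 296 ± 10.6 and 256 ± 10.4 with an adjusted p of 0.0711.

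FUT3, FUT5 and FUT6 are neighbouring copies on chromosome 19, and their coding sequences are shown because they decide how far their counts can be told apart. The stretches are coding bases 601 to 720 of FUT3, 640 to 759 of FUT5 and 598 to 717 of FUT6, counted from the first base of the start codon in the longest complete coding sequence of GENCODE release 29. Capitals mark the 8 positions where the 3 are not all alike.
FUT3: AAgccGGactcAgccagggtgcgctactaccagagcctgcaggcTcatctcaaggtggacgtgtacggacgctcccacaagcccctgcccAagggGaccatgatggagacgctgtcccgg
FUT5: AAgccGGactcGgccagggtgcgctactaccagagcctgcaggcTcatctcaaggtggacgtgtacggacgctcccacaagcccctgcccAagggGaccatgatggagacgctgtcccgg
FUT6: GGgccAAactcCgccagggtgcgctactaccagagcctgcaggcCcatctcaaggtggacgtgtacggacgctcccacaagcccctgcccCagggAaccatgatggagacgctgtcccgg
In this stretch FUT5 differs from FUT3 at 1 position and FUT6 at 8. Over the whole coding sequence FUT3 was 90.7% identical to FUT5 and 87.4% identical to FUT6, and 41.5% of its 50-base windows also occur in transcripts of another gene. FUT5 was listed at 0 in all 6 libraries, and all of its windows also occur in the overlapping gene AC024592.3, which was at 4.81 to 12.9. How reads were divided among these genes is uncertain, and the value of FUT6 in particular rests on few reads.

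The sialyltransferases that add α2,3-linked sialic acid had the largest median size of change of the 7 steps (0.60 on the log2 scale, without sign). Of 6 tested, 2 fell and 2 rose, and the 2 that fell, ST3GAL1 and ST3GAL2, act on core 1. ST3GAL1 (ENSG00000008513, chromosome 8, bases 133454848 to 133571940, minus strand in hg38), which converts the T antigen to sialyl-T, was at 5679, 5532 and 5693 with the scrambled hairpin and 1432, 1488 and 1689 with the LTBP1 hairpin. It fell from 5634 ± 89.4 to 1536 ± 135 (SD, n = 3 each), which leaves 27.3% of the control, the largest fall of any tested member (log2 fold change -1.88, standard error 0.06, adjusted p = 2.45e-08). ST3GAL2 (ENSG00000157350, chromosome 16, bases 70375978 to 70439237, minus strand), which uses the same acceptor and gangliosides, was at 113, 87.0 and 106 in control libraries and 30.3, 28.1 and 32.4 after depletion. It fell to 29.7% of the control (log2 fold change -1.71, standard error 0.19, adjusted p = 4.06e-05). Both genes were called under all 16 alternatives, and the genes around them had medians of 0.13 and -0.03.

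The other tested enzymes of this step rose or did not pass. ST3GAL4, which prepares sialyl Lewis x, was at 933, 808 and 939.5 in shSCR against 1239, 1243 and 1168 in shLTBP1 and rose (log2 fold change 0.45, standard error 0.07, adjusted p = 6.51e-04). ST3GAL6, with a like activity, was at 36.1, 34.2 and 39.9 with the scrambled hairpin and 58.6, 56.6 and 74.7 with the LTBP1 hairpin and rose (log2 fold change 0.76, standard error 0.20, adjusted p = 0.00967). In both genes every shLTBP1 value exceeded every shSCR value. ST3GAL3, which acts on type 1 chains and prepares sialyl Lewis a, was at 36.4 to 55.7 and did not pass, and it shares 75.3% of its coding 50-base windows with an overlapping gene, ENSG00000284989, that was listed at 0. ST3GAL5, the GM3 synthase, was at 107 ± 12 and 115 ± 28.3 and did not pass. Per kilobase the family summed to 862 ± 27.8 in shSCR and 469 ± 6.42 in shLTBP1, a ratio of 0.544. ST3GAL1 took 73.3%, 75.3% and 73.1% in shSCR against 34.9%, 36.0% and 40.1% in shLTBP1. ST3GAL4 took 23.9%, 21.8% and 23.9% in shSCR against 59.9%, 59.6% and 54.9% in shLTBP1. Per kilobase it was therefore the first in the shLTBP1 libraries and the second in the shSCR libraries. By count, ST3GAL1 remained above ST3GAL4 in shLTBP1 (means of 1536 and 1216). This order and these shares thus rest on the exon lengths, which cover all annotated transcripts of a gene.

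Of the α2,6 sialyltransferases, 1 of 5 tested rose, 2 fell and 2 did not pass. ST6GALNAC2, which acts on core 1 and Tn, was low, at 19.3, 8.20 and 8.87 in control libraries and 45.6, 29.2 and 29.9 after depletion. It rose without overlap (log2 fold change 1.52, standard error 0.38, adjusted p = 0.00779), and 24.2% of its coding 50-base windows are shared with an overlapping gene, AC015802.6, that did not exceed 4.05. ST6GALNAC4, which adds α2,6-linked sialic acid to sialyl-T, fell from 749 ± 6.68 to 636 ± 12.3 (log2 fold change -0.24, adjusted p = 0.0102). ST6GALNAC6, which makes disialyl Lewis a, had the highest count of the step, with 1200.0, 1290.1 and 1210.2 in shSCR against 1111, 1093 and 1056 in shLTBP1. It fell from 1233 ± 49.3 to 1087 ± 28.0 without overlap (-0.18, adjusted p = 0.0252). It lost the call without any 1 of shSCR replicates 2 and 3 and shLTBP1 replicate 3 (adjusted p 0.0507 to 0.101), and 95.8% of its windows are shared with the overlapping gene AL157935.2, which was at 36.3 to 97.4. ST6GALNAC1, the sialyl-Tn enzyme, was at 6.16, 15 and 15.9 with the scrambled hairpin and 14.8, 7.18 and 20.8 with the LTBP1 hairpin, with overlapping groups (adjusted p = 0.783). ST6GALNAC5 was at 22.0 to 48.1 and did not pass. ST6GAL1, which caps N-glycans, did not exceed 0.97 in any library, and ST6GAL2 and ST6GALNAC3 were listed at 0.

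Some members lie where many neighbouring genes moved together, above all on chromosome 2, where 653 of 852 tested genes were lower. The members were therefore also tested after the median of the 25 tested genes on each side was subtracted in each library. Of 9 members on chromosome 2, 3 were tested. GALNT3 lost its call and was at 0.06 (adjusted p = 0.425), so its fall was about as large as that of its neighbours (-0.56). B3GNT2 and ST3GAL5, which had not passed, were higher than their neighbours by 0.50 and 0.65 (adjusted p = 1.06e-05 and 0.0200). On chromosome 3, B3GNT5 turned from a rise to -0.15 and no longer passed (adjusted p = 0.0554), and B4GALT4 was at -0.07 and no longer passed (0.408). On chromosome 9, GALNT12 was at -0.82 against neighbours at 0.44, a larger fall than without subtraction, and GCNT1 did not pass either way. GALNT2, GALNT7, ST3GAL1, ST3GAL2, B4GALT6, GCNT4 and ST6GALNAC2 moved, after rounding, by no more than 0.15 on the log2 scale with subtraction and kept their calls. What moved the neighbouring genes was not tested.

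**Figure D4:**
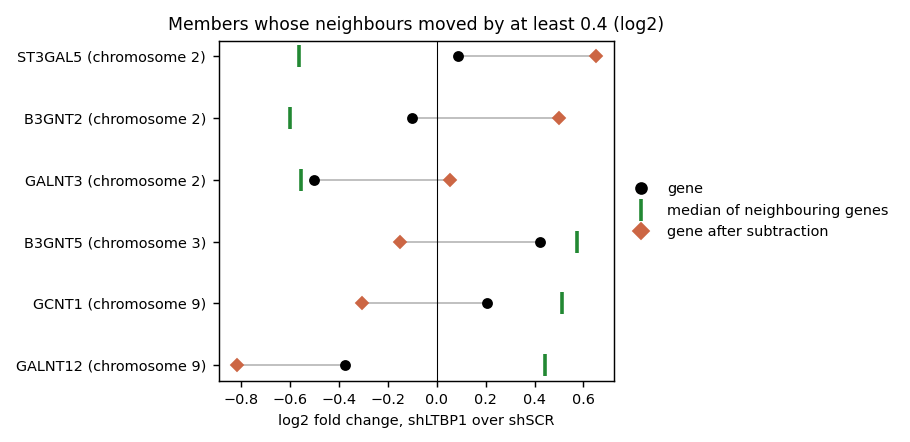
Log2 fold change (shLTBP1 over shSCR) of the 6 tested members whose neighbouring genes moved by at least 0.4: the gene itself (circle), the median of 25 tested genes on each side (bar) and the gene after subtraction (diamond). GALNT3 ends close to 0, and B3GNT2 crosses 0 and passes the test after subtraction, while B3GNT5 and GCNT1 cross 0 without passing it.

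RNAs of enzymes that make sugar donors moved in both directions. Of 17 tested genes of nucleotide sugar synthesis, 5 rose and 7 fell (median -0.06). These calls are 70.6% of the list, beside 53.1% of all tested genes. Neither this list nor those below were tested against that share. GALT and NANS rose most, by 0.79 and 0.77 on the log2 scale: GALT, of galactose use, from 1146 ± 37.3 to 1987 ± 60.5, and NANS, the sialic acid synthase, from 1081 ± 15.2 to 1847 ± 126. Both are on chromosome 9, and subtraction of the neighbours' median left 0.46 for GALT and 0.26 for NANS. FCSK, which salvages fucose, and UGP2, which makes UDP-glucose, fell most (-0.51 and -0.45), and UGP2, on chromosome 2, turned to 0.15 after subtraction. GNE, the first enzyme of sialic acid synthesis, had the highest count of the list (18847 ± 538 to 20502 ± 366, a rise of 0.12) and turned to -0.37 after subtraction.

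Transporters that carry sugar donors into the Golgi changed in 5 of 11 cases, 2 higher and 3 lower (median 0.00). That is 45.5%, beside 53.1% of all tested genes. SLC35A1, the only one known to carry CMP-sialic acid, fell from 1047 ± 22.2 to 777 ± 51.4 (log2 fold change -0.43, adjusted p = 4.90e-04), and SLC35B4 fell from 293 ± 25.4 to 147 ± 8.55 (-0.98). SLC35C2 and the UDP-galactose carrier SLC35A2 rose by 0.32 and 0.23 on the log2 scale. SLC35C1, the GDP-fucose carrier, did not pass (1139.5 ± 31.5 and 1243 ± 45.8).

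Of 11 tested transferases and chaperones outside the families, 3 rose and 2 fell (median -0.07), so that 45.5% passed. B4GALNT3, which makes LacdiNAc chain ends, rose from 272 ± 51.4 to 492 ± 25.9, and A4GALT, which makes the globoside precursor Gb3, from 2692 ± 133 to 4545 ± 205. B4GALNT1, which makes the gangliosides GM2 and GD2, fell from 945 ± 47.0 to 535 ± 13.6, and POFUT2 fell by 0.28 on the log2 scale. POFUT2 lies on chromosome 21 and was at 0.19 after subtraction. ABO, the blood group A and B enzyme, did not reach the mean of 10.

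Among 7 tested sialidases and glycosidases, 3 rose and 2 fell (median 0.12), so that 71.4% passed. NEU3, the plasma membrane sialidase that acts on gangliosides, fell from 799.8 ± 70.4 to 447 ± 8.01 (log2 fold change -0.83), and FUCA1, the lysosomal fucosidase, from 2080.3 ± 65.2 to 1462 ± 45.1 (-0.51). GLB1, the lysosomal enzyme that removes galactose, and FUCA2, a secreted fucosidase, rose by 0.35 and 0.25 on the log2 scale. None of 3 tested sulfotransferases passed (CHST4, CHST6 and GAL3ST2; limma adjusted p 0.345 to 0.418, and 0 of 3 at an unadjusted p under 0.05). Over the 5 lists together, 27 of 49 tested genes passed, or 55.1%, which is also close to the 53.1% of all tested genes.

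**Figure D5:**
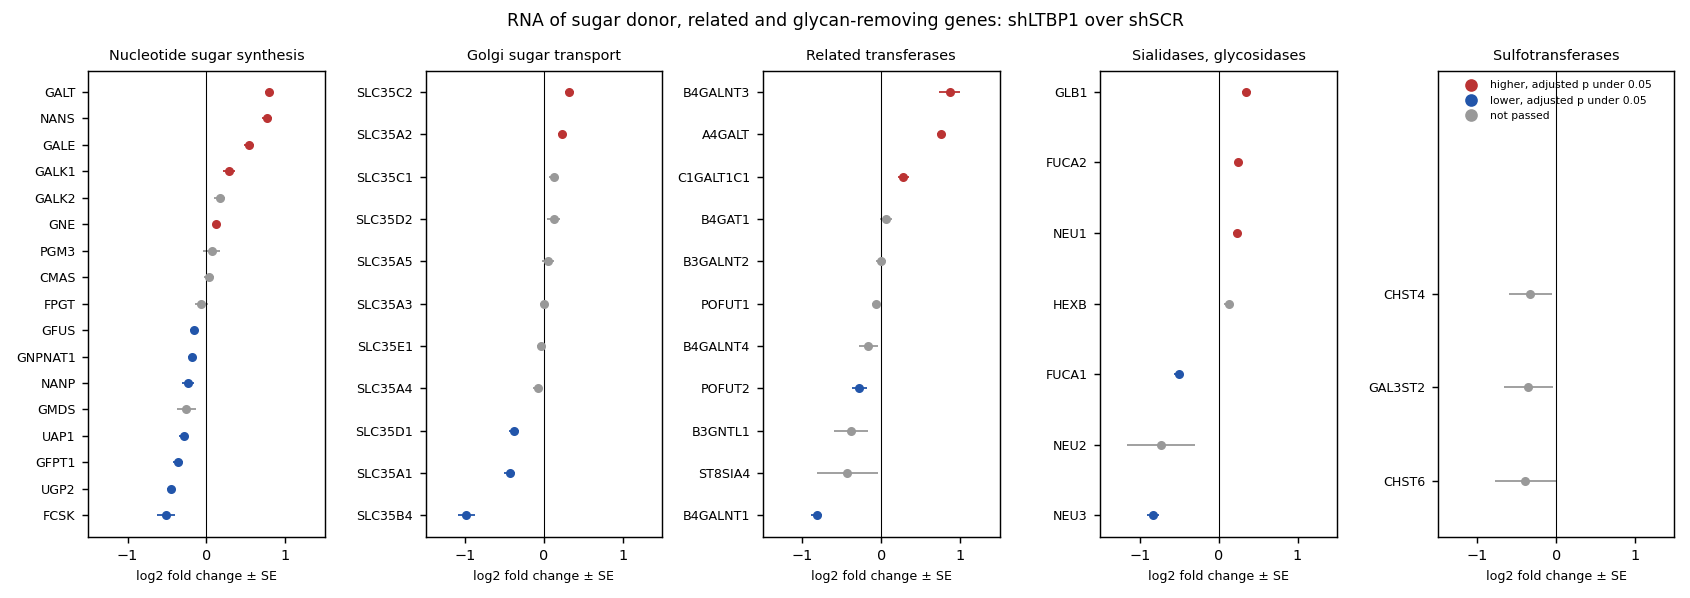
Log2 fold change (shLTBP1 over shSCR) with its standard error for the 49 tested genes of 5 lists around the transferases, 1 panel per list; colour marks the limma call. Each list with calls has them on both sides of 0, and the 3 sulfotransferases are grey.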

How the data were processed

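RNA of 3 shSCR and 3 shLTBP1 libraries of MKN28 cells was sequenced, after a directional library preparation per the labels. The deposited table holds a normalized signal for each gene: counts after DESeq2 scaling by the authors, as the table's name says. The submitters' processing notes name hg38, FastQC 0.10.1, STAR 2.7.3a and RSEM 1.3.1. For annotation, strand setting and filters, the sources used here give nothing. Of values between 0.5 and 10, 35.8% to 38.4% were within 0.1 of a whole multiple of the commonest value near 1, so reads were not recovered, no count test was run and sequencing depth is unknown.

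Group and replicate came from the sample titles. Limma 3.58.1 in R 4.3.3 was fitted to log2(value + 1) of the 12789 genes whose mean reached 10, with group as the only term and a variance trend (4 residual and 5.6 prior degrees of freedom), two-sided, with Benjamini-Hochberg adjustment over all 12789 at 0.05. The pseudocount understates changes of low genes. The test was checked on simulated data. Positions and exon lengths came from GENCODE release 29 on GRCh38, with 19872 of 19960 identifiers matched, and all 70 members. Coding sequences were searched for 50-base windows that occur in transcripts of other genes.

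The members, steps and lists were chosen with earlier results of these data known. Named genes are LTBP1, every member, and from each list up to 2 that rose and 2 that fell most; C1GALT1C1, GNE, GFPT1, SLC35C1, SLC35D2, ABO and the sulfotransferases were added after their values were seen. A single item of these lists is not reported here. B3GNT10 was taken by the rule but had been given no step. Alternatives were a pseudocount of 0.5 or 5, a minimum mean of 50 or none, upper quartile and quantile scaling, no variance trend, robust moderation, the replicate number as a block, each library left out, and subtraction of the median of 25 neighbours on each side, each gene first centred on its own mean.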

Additional observations from a re-analysis of the deposited data

How the results depend on the processing

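Over 16 alternatives the members' calls ranged from 13 to 16 higher and from 11 to 15 lower, against 14 and 15 in the report, and those over all tested genes from 2868 to 3687 higher and from 2954 to 3435 lower. Direction and call held for 21 of 29 called members wherever they were tested; 8 lost the call or turned under some alternative, and 6 of 22 uncalled members passed under some. The LTBP1 level stayed between -4.17 and -3.48. Where a value passed the test on either side of a change of sign, the change came only with the neighbour median subtracted: GALNT3 (0.055), B3GNT2 (0.50), B3GNT5 (-0.15), GNE (-0.37), UGP2 (0.15), GFPT1 (0.24), SLC35D2 (-0.40) and POFUT2 (0.19), which by construction takes out what a gene shares with its neighbours. Upper quartile scaling gave 16 higher and 12 lower members and moved the median of all genes from 0.00 to 0.03. With the replicate number as a block, 15 members were higher and 14 lower (3347 and 3408 of all genes); FUT6 passed (adjusted p = 0.0137) and B4GALT3 did not (0.0553), and no other member's call changed. Deviations of same-numbered libraries correlated at -0.00925, 0.0584 and -0.00074 across genes, and those of differently numbered libraries at -0.0397 to 0.0445. The titles do not say that the numbers pair the libraries, and with 3 libraries per group these correlations cannot decide it. With depth unknown, members with low counts (GCNT1, GCNT3, FUT6, FUT9, GALNT16, ST6GALNAC1 and ST6GALNAC5) could not show differences smaller than their wide spread.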

Other observations

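GALNT8, an initiating enzyme, was listed at 0 in all 6 libraries, yet 63.0% of the 50-base windows of its coding sequence also occur in an overlapping gene, AC005833.1, which was at 405, 379 and 387 in shSCR against 379, 295 and 389.8 in shLTBP1. How the reads of this locus were assigned is not given in the sources used here, so the level of GALNT8 itself is uncertain.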
